A study of Mus musculus with 9 samples.

Results

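N-linked glycosylation machinery of the mouse retina was followed through 43 genes, from the activation of mannose to the processing of glycans in the Golgi, chosen by gene symbol out of 55487 genes counted. The tissue came from C57BL/6J mice, wild type and 28 days old (P28), whose retinas were kept as explants for 48 h. Both groups received 5 mM glucose, and the treated group (2-DG, 4 libraries) was also given 2-deoxy-D-glucose at 20 mM, which the control group (5 libraries) was not. Every explant was then kept for 1 h in Krebs' Ringer medium before total RNA was taken. 2-DG is a glucose analog that is taken up and phosphorylated but not carried through glycolysis, and the comparison asks how inhibition of glycolysis alters gene expression in the retina. The labels call the libraries of a group biological replicates but do not tie them to named animals, so the spread given here is that between libraries.

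N-linked glycosylation joins a preformed oligosaccharide to asparagine residues of proteins as they enter the endoplasmic reticulum (ER). The oligosaccharide is built on the lipid dolichol, first on the cytosolic and then on the luminal face of the ER membrane, from nucleotide sugars and dolichol-linked sugars, and the oligosaccharyltransferase (OST) transfers it to the protein. Trimming of its glucose and mannose residues reports on protein folding in the ER, and the glycan is remodeled in the Golgi. Photoreceptors produce large amounts of the glycoprotein rhodopsin, and inherited defects of dolichol synthesis, such as those in DHDDS, cause retinal degeneration. Because 2-DG also resembles mannose, it is known to interfere with the assembly of dolichol-linked oligosaccharides.

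Libraries held between 11318087 (2-DG replicate 1) and 51802230 (2-DG replicate 3) estimated counts, so that 3 counts corresponded to 0.0556 to 0.255 CPM, the counts relative to the TMM-scaled library size. The retina label was matched by its markers: none of the 8 rod genes was at 0, and their summed level was 4765 to 41430 CPM in controls and 7210 to 15715 CPM with 2-DG, with 0 of 8 higher with 2-DG by log2 fold change. Control replicate 2 stood apart with 41430 CPM, since the other controls reached no more than 14424 CPM. The median of the summed rod level was 8259 CPM in controls and 8572 CPM with 2-DG, so by median it was not lower with 2-DG. In addition, 2-DG replicate 3 held 97.8 CPM of retinal pigment epithelium markers against 1.61 to 20.4 CPM in the other 2-DG libraries and 2.52 to 9.34 CPM in controls. Summed Müller glia markers were 1819 to 6782 CPM in controls and 838 to 3342 CPM with 2-DG, with 1 of 6 markers higher with 2-DG and 3 of 6 at an unadjusted p-value under 0.05, whereas summed bipolar cell markers were 145 to 1890 CPM in controls and 288 to 2930 CPM with 2-DG, with 6 of 6 markers higher. Of the other retinal lists, 5 of 6 cone markers (1 at an unadjusted p-value under 0.05), 2 of 8 amacrine and horizontal cell markers, 0 of 6 ganglion cell markers, 4 of 6 microglia markers and 3 of 6 vascular markers were higher with 2-DG. Summed ganglion cell markers were highest in control replicate 2, at 1460.9 CPM, and their medians were 380.5 CPM in controls and 418.2 CPM with 2-DG. Control replicate 2 also gave the lowest control value for 16 of the 43 glycosylation genes. The part of these cell marker differences in the results on the glycosylation genes was not tested, and in bulk tissue fewer cells of a type and less RNA per cell cannot be told apart.

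Of the pathway's steps, OST had the highest median difference. Of its 8 genes, 7 had higher levels with 2-DG and their median log2 fold change was 0.68, whereas the median over all 43 genes was 0.13 and that over all genes tested was -0.01. Dpagt1, the enzyme that starts the dolichol-linked oligosaccharide, and Prkcsh and Uggt1, which act on glucose residues of the finished glycan, were also higher in every 2-DG library than in any control. In contrast, genes for dolichol supply, for dolichol-linked sugar donors and for luminal assembly had log2 fold changes between -0.36 and 0.27. Those for mannose activation ran from -0.20 to 0.39 and those for Golgi processing from -0.07 to 0.36.

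None of the 43 genes passed an adjusted p-value of 0.05 in edgeR's quasi-likelihood test with Benjamini-Hochberg adjustment, and across all 21049 genes tested 0 (0%) did. At an unadjusted p-value under 0.05, 8 of the 43 genes (18.6%) were higher with 2-DG and 0 were lower, whereas among all genes 2.42% were higher and 4.83% were lower at that level. In 7 of the 43 genes (16.3%) every 2-DG library lay above every control and in 0 every 2-DG library lay below, against 1.52% and 1.41% of all genes. A log2 fold change above 0 was found for 32 of the 43 genes (74.4%) and for 49.2% of all genes. With upper-quartile scaling these shares were 60.5% and 42.0%, so the direction of genes with small differences depends on the scaling. The same counts gave 4 of the 43 genes past an adjusted p-value of 0.05 in DESeq2 (Ddost, Dpagt1, Ostc and Rpn2), where 1.35% of all genes passed, and 6 in limma-voom with quality weights (those 4 with Prkcsh and Rpn1), where 5.81% of all genes passed.

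**Figure D1:**
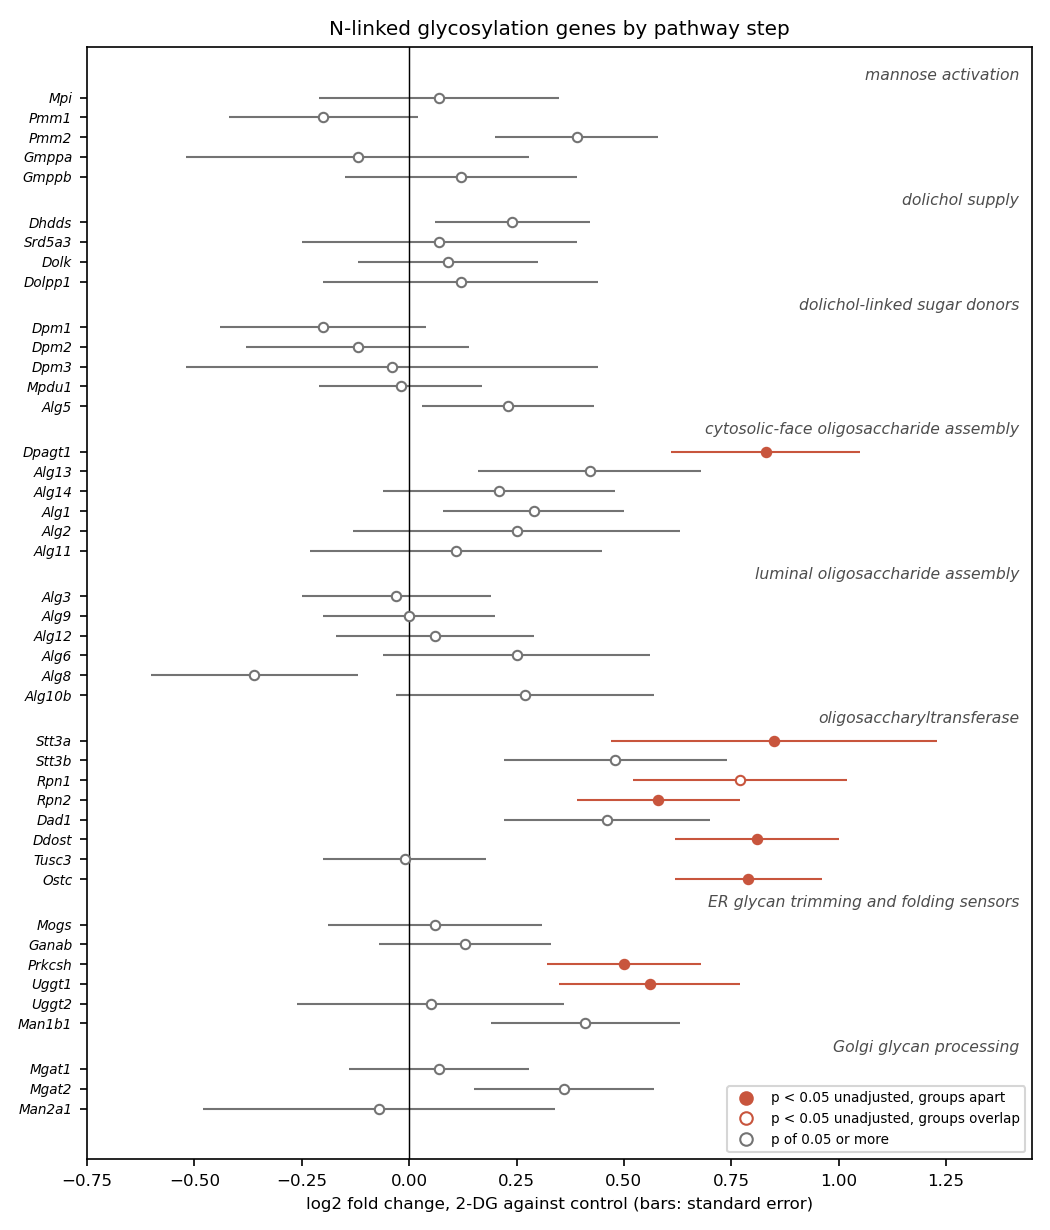
Log2 fold change of 2-DG against control (x axis) for each of the 43 genes, grouped by pathway step; bars are standard errors, red marks an unadjusted p-value under 0.05, and filled red circles mark genes whose groups do not overlap. The red symbols lie in the OST (5), in ER trimming (2) and in cytosolic assembly (1), and all lie between 0.50 and 0.85.

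Mannose reaches the pathway as GDP-mannose, which is made by isomerization (Mpi), a change of phosphate position (Pmm1, Pmm2) and nucleotide addition (Gmppb, with Gmppa as its regulatory partner). Of these 5 genes, 3 were higher and 2 lower with 2-DG (2 and 3 with upper-quartile scaling, where Mpi turned), 0 had an unadjusted p-value under 0.05, and the median log2 fold change was 0.07. When single libraries were left out, 2 to 4 genes were higher, the median ran from -0.09 (without 2-DG replicate 2) to 0.21 (without control replicate 2), and Mpi, Gmppa and Gmppb took either sign. Pmm2, the phosphomannomutase whose loss causes the most common congenital disorder of glycosylation, measured 27.3, 31.3, 29.5, 26.2 and 35.4 CPM in controls and 32.2, 39.0, 37.7 and 47.7 CPM with 2-DG. The groups overlapped, since the lowest 2-DG library lay below the highest control. Its log2 fold change reached 0.39, against a standard error (SE) of 0.19 (adjusted p = 0.713). Gmppa, described after its values were seen, measured 37.8, 106.7, 26.0, 31.5 and 33.5 CPM in controls and 49.6, 40.8, 44.2 and 38.2 CPM with 2-DG. Control replicate 2 alone was above the 2-DG libraries, so the log2 fold change of Gmppa was -0.12 over all libraries but 0.42 without control replicate 2, at an unadjusted p-value of 0.0433.

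Dolichol is made by cis-prenyltransferase (Dhdds), reduced (Srd5a3), phosphorylated (Dolk) and recovered after use (Dolpp1). Over all libraries the 4 genes had log2 fold changes above 0, from 0.07 for Srd5a3, which turned below 0 with upper-quartile scaling or library size only, to 0.24 for Dhdds. Srd5a3 (down to -0.11) and Dolpp1 (down to -0.05) also turned when single libraries were left out, and 0 had an unadjusted p-value under 0.05. Dhdds measured 41.6, 37.4, 44.1, 36.7 and 43.5 CPM in controls and 39.3, 44.7, 50.3 and 57.7 CPM with 2-DG. The lowest 2-DG library lay among the controls, and the log2 fold change of 0.24 (SE 0.18, adjusted p = 0.801) was little above its error and was 0.14 without 2-DG replicate 4.

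Dolichol-linked mannose and glucose are made by the Dpm1, Dpm2 and Dpm3 complex and by Alg5, and Mpdu1 is needed for their use in the lumen. With 2-DG, 4 of these 5 genes were lower and 1 was higher, with a median log2 fold change of -0.04 and 0 at an unadjusted p-value under 0.05. This direction rested on single libraries, since 4 of 5 were higher without control replicate 2 (median 0.10) and 3 of 5 without 2-DG replicate 3 (median 0.09). Alg5, the glucosyltransferase, had the smallest p-value of the step. It measured 20.0, 19.0, 19.7, 19.4 and 23.5 CPM in controls and 20.7, 22.4, 22.0 and 30.1 CPM with 2-DG, so that only 2-DG replicate 4 lay above all controls. The log2 fold change was 0.23 (SE 0.20, adjusted p = 0.825), and 0.10 without 2-DG replicate 4.

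Assembly on the cytosolic face opens with Dpagt1, which transfers N-acetylglucosamine phosphate to dolichol phosphate and is the target of tunicamycin. Dpagt1 (ENSMUSG00000032123, chr9:44326019-44333900 on GRCm38) measured 17.6, 11.3, 16.9, 12.7 and 17.2 CPM in controls and 24.4, 26.5, 31.2 and 25.5 CPM with 2-DG. The groups did not overlap, and the mean was 15.1 ± 2.91 CPM (SD, n = 5) in controls and 26.9 ± 3.00 CPM (SD, n = 4) with 2-DG. Its log2 fold change was 0.83 (SE 0.22, adjusted p = 0.524), a 1.77-fold difference, and the unadjusted p-value was 0.00325. Dpagt1 stayed under an unadjusted p-value of 0.05 when any of the 9 libraries was left out. The other genes of this step, Alg13 and Alg14, which add the next sugar, and the mannosyltransferases Alg1, Alg2 and Alg11, had log2 fold changes from 0.11 for Alg11 to 0.42 for Alg13, with 0 at an unadjusted p-value under 0.05. Alg11 turned to as low as -0.06 when single libraries were left out and to -0.02 with summed transcripts.

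Luminal assembly adds mannose (Alg3, Alg9, Alg12) and glucose (Alg6, Alg8, Alg10b) to complete the oligosaccharide. The median log2 fold change was 0.03, with 3 of 6 genes above 0 (2 to 4 under other scalings), 2 below and Alg9 at 0.00 after rounding. When single libraries were left out, 2 to 5 of 6 were above 0 and the median ran from -0.04 (without control replicate 4) to 0.09 (without 2-DG replicate 3). Alg8, which adds the second glucose, was the lowest of the 43 genes over all libraries. It measured 13.4, 15.5, 16.7, 12 and 15.2 CPM in controls and 10.5, 13.6, 8.52 and 12.6 CPM with 2-DG, and the groups overlapped. The log2 fold change was -0.36 (SE 0.24, adjusted p = 0.779). With summed transcripts it was -0.16, and Pmm1 (-0.20) was then lower.

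OST consists of a catalytic subunit, either Stt3a, which acts mainly as proteins are translocated, or Stt3b, which can also act later, together with the shared subunits Rpn1, Rpn2, Ddost and Dad1. Ostc belongs to the Stt3a form and Tusc3 to the Stt3b form of the complex. In this step 5 of 8 genes (62.5%) had an unadjusted p-value under 0.05, all higher with 2-DG, and in 4 (50%) the groups did not overlap, against 2.42% and 1.52% of all genes. With any 1 library left out, 4 or 5 of the 8 had such a p-value and the median log2 fold change was 0.56 to 0.72. Stt3b, Dad1 and Tusc3, which did not meet the rule for single description, are given with their values to complete the complex, a choice made after the values were seen.

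Ostc (ENSMUSG00000041084, chr3:130695912-130709444) had the smallest p-value of the 43 genes. It measured 36.0, 32.6, 39.2, 30.7 and 32.1 CPM in controls and 55.1, 66.2, 60.3 and 54.5 CPM with 2-DG, and every 2-DG library lay well above every control. Means were 34.2 ± 3.44 CPM (SD, n = 5) and 59.0 ± 5.46 CPM (SD, n = 4). The log2 fold change was 0.79 (SE 0.17, adjusted p = 0.494), 1.73-fold, with an unadjusted p-value of 0.000803.

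Ddost (ENSMUSG00000028757, chr4:138304730-138312628), a shared membrane subunit, measured 82.8, 56.3, 75.4, 76.6 and 88.2 CPM in controls. With 2-DG it measured 129.5, 148.2, 118.2 and 137.0 CPM, and the groups did not overlap. Means were 75.8 ± 12.1 CPM (SD, n = 5) and 133 ± 12.6 CPM (SD, n = 4). The log2 fold change came to 0.81 (SE 0.19, adjusted p = 0.514). Control replicate 2 was the lowest library, and the log2 fold change without it was 0.72.

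The ribophorins Rpn1 and Rpn2 are large membrane subunits of the complex. Rpn1 (ENSMUSG00000030062, chr6:88084482-88105304) measured 138.8, 78.8, 146.4, 109.8 and 86.8 CPM in controls and 207.9, 236.0, 179.2 and 141.1 CPM with 2-DG. Its groups overlapped because 2-DG replicate 4 lay below control replicate 3, and the log2 fold change was 0.77 (SE 0.25, adjusted p = 0.564). Rpn2 (ENSMUSG00000027642, chr2:157279017-157326319) measured 168.4, 121.0, 150.1, 162.3 and 164.3 CPM in controls and 226.4, 235.2, 202.9 and 253.3 CPM with 2-DG. The groups of Rpn2 did not overlap, and its log2 fold change was 0.58 (SE 0.19, adjusted p = 0.553).

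Stt3a (ENSMUSG00000032116, chr9:36729344-36767679) had the highest log2 fold change of the 43 genes over all libraries. It measured 73.4, 27.6, 115.0, 132.4 and 127.7 CPM in controls and 160.8, 170.9, 177.2 and 175.7 CPM with 2-DG. The 2-DG libraries lay close together and above all controls, whereas control replicate 2 was far below the other controls. The log2 fold change was 0.85 (SE 0.38, adjusted p = 0.689) with an unadjusted p-value of 0.0497, and without control replicate 2 it was 0.61, below that of Ostc (0.77). With summed transcripts Dpagt1 (0.88) was highest. When single libraries were left out, Stt3a kept an unadjusted p-value under 0.05 in 3 of 9 fits.

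Stt3b, the other catalytic subunit, measured 121.3, 71.7, 124.0, 120.2 and 71.7 CPM in controls and 159.7, 173.7, 139.8 and 95.8 CPM with 2-DG. Only 2-DG replicate 4 lay within the range of the controls, and the log2 fold change was 0.48 (SE 0.26, adjusted p = 0.740). Dad1, a small subunit first known as a defender against cell death, measured 47.7, 53.1, 36.1, 47.3 and 58.4 CPM in controls and 51.9, 54.5, 61.7 and 98.2 CPM with 2-DG. Here the groups overlapped and 2-DG replicate 4 was the highest, and the log2 fold change came to 0.46 (SE 0.24, adjusted p = 0.733), and to 0.21 without that library. Tusc3, an oxidoreductase subunit, measured 70.3, 82.5, 64.0, 58.5 and 56.2 CPM in controls and 74.0, 70.9, 64.9 and 54.0 CPM with 2-DG. The groups of Tusc3 overlapped, with 2-DG replicate 4 below every control and the others among them, and its log2 fold change of -0.01 (SE 0.19, adjusted p = 0.994) took either sign when single libraries were left out. For the other OST genes the log2 fold change was above 0 in each of 18 alternative settings.

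**Figure D2:**
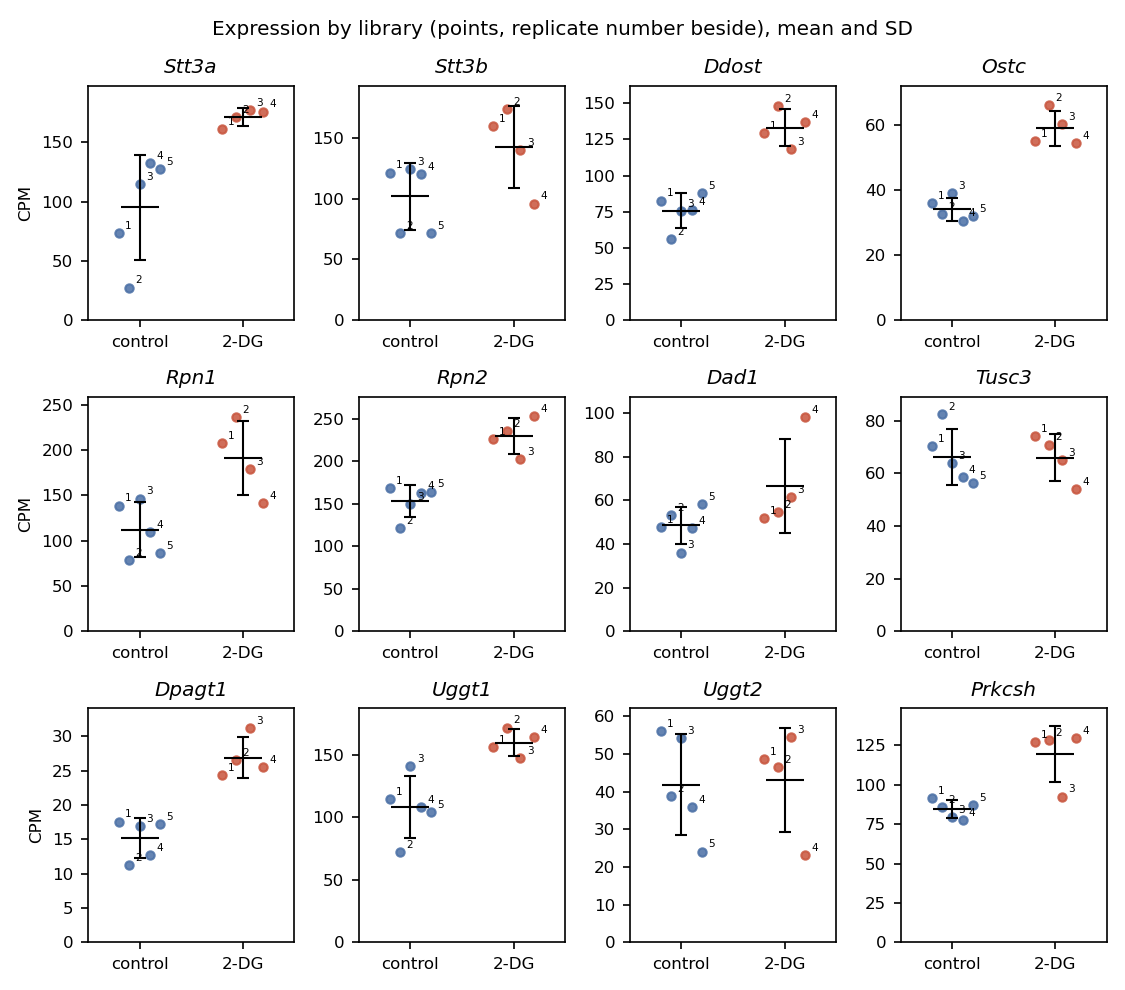
CPM on the scaled library size (y axis, from 0) in each control and 2-DG library for the 8 OST genes and for Dpagt1, Uggt1, Uggt2 and Prkcsh; points are libraries with their replicate number, and lines are the mean and SD. The 2-DG libraries of Ostc (54.5 to 66.2 CPM) lie above all controls (30.7 to 39.2 CPM), while those of Tusc3 (54.0 to 74.0 CPM) overlap the controls (56.2 to 82.5 CPM).

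After transfer, glucosidase I (Mogs) and glucosidase II (Ganab with its regulatory subunit Prkcsh) remove glucose, Uggt1 and Uggt2 add it back to glycoproteins that are not folded, and Man1b1 removes mannose. Over all libraries the 6 genes had log2 fold changes above 0, with a median of 0.27, and 2 (33.3%) had an unadjusted p-value under 0.05, against 2.42% of all genes higher at that level. The count was 0 without 2-DG replicate 2, against 1.82% of all genes, and 1 without control replicate 4, against 1.35%. It was 3 without 2-DG replicate 4, against 3.38% of all genes. Mogs and Uggt2 turned below 0 with upper-quartile scaling, Mogs also with library size only, and both when single libraries were left out (down to -0.25 and -0.11). Uggt1 (ENSMUSG00000037470, chr1:36140027-36244720), the folding sensor, measured 114.6, 72.0, 141.2, 108.4 and 104.1 CPM in controls and 156.0, 171.7, 147.1 and 163.9 CPM with 2-DG. The groups did not overlap, although control replicate 3 came close to 2-DG replicate 3, and the log2 fold change was 0.56 (SE 0.21, adjusted p = 0.627). Prkcsh (ENSMUSG00000003402, chr9:22002806-22014222) measured 91.5, 85.8, 79.6, 77.9 and 87.4 CPM in controls and 127.3, 128.3, 92.6 and 129.6 CPM with 2-DG. Its groups were separated only narrowly, by 2-DG replicate 3 and control replicate 1, and the log2 fold change was 0.50 (SE 0.18, adjusted p = 0.604). Ganab, the catalytic partner of Prkcsh, had a log2 fold change of 0.13 (SE 0.20), and that of Man1b1 was 0.41 (SE 0.22).

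In the Golgi, Mgat1 and Mgat2 add the N-acetylglucosamine residues that start the branches of complex glycans, and Man2a1 removes mannose between these steps. None of these 3 genes had an unadjusted p-value under 0.05, and the log2 fold changes were -0.07 for Man2a1, 0.07 for Mgat1 and 0.36 for Mgat2. With single libraries left out, Man2a1 (-0.32 to 0.07) and Mgat1 (-0.02 to 0.19) took either sign, and Mgat1 also turned with upper-quartile scaling. Mgat2 measured 30.5, 22.1, 31.9, 31.7 and 34.2 CPM in controls and 32.5, 34.1, 40.4 and 47.9 CPM with 2-DG. The lower 2-DG libraries of Mgat2 lay within the range of the controls, and its adjusted p was 0.749 in the edgeR test.

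The 30 genes that did not meet the rule for single description, Stt3b, Dad1, Tusc3 and Gmppa among them, had log2 fold changes between -0.20 and 0.48, with 20 above 0, 9 below 0 and none with an unadjusted p-value below 0.0848. All 43 genes passed the filter on low counts, and the lowest count of any of them in a library was 28, for Dpm3. The number of the 43 genes above their own control median was 32, 37, 31 and 27 in the 2-DG libraries, and 24, 17, 19, 3 and 23 in the controls. Control replicate 4 was thus at or below the control median for most of the pathway. The median was taken from the same controls, which limits how often a control can lie above it. Counts of controls and of 2-DG libraries can therefore not be set against each other, and the same counts over all genes were not made. When single libraries were left out, 5 to 9 of the 43 genes had an unadjusted p-value under 0.05 and were higher with 2-DG, while 1.35% to 3.38% of all genes were in the same fits. The lowest count came without 2-DG replicate 2, where Dpagt1, Rpn1, Rpn2, Ddost and Ostc made up the 5, and these 5 genes met that level in every such fit. In 17 of the 43 genes, none of them among the 8 above, the log2 fold change took either sign over these fits.

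Several proteins of the pathway come in related pairs, either as alternatives for a reaction or, for Gmppb and Gmppa, as catalytic and regulatory partners, and their ratio within a library does not depend on the scaling between libraries. For 5 such pairs the log2 ratio was compared by an exact two-sided permutation test, in which the smallest p-value the design allows is 0.00794. The log2 ratio of Pmm2 to Pmm1 was -1.64, -2.24, -1.77, -1.83 and -1.63 in controls and -1.51, -1.42, -0.97 and -1.10 with 2-DG. Every 2-DG library lay above every control, so that Pmm2 made up a larger part of the phosphomannomutase gene counts with 2-DG. The difference was 0.57 (exact permutation p = 0.00794, adjusted over the 5 pairs p = 0.0397). With gene values summed from transcripts the difference was 0.50 and the adjusted permutation p was 0.119, above the threshold. The coding form Pmm2-201, with 82.2% of Pmm2 counts in controls, had a log2 fold change of 0.12 (SE 0.35). Pmm2-206, with a retained intron and 9.1% of the counts in controls, had 1.12 (SE 0.55).

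The log2 ratio of Stt3a to Stt3b was -0.25 ± 0.84 in controls (SD, n = 5) and 0.30 ± 0.42 with 2-DG (SD, n = 4), a difference of 0.55 (exact permutation p = 0.294, adjusted p = 0.367). Without control replicate 2 it was 0.27, and with summed transcripts it was 0.26. Likewise, the ratio of Uggt1 to Uggt2, whose log2 mean was 1.40 ± 0.48 in controls and 1.96 ± 0.61 with 2-DG, differed by 0.56 (exact permutation p = 0.167, adjusted p = 0.278), and by 0.26 without 2-DG replicate 4 and 0.22 with summed transcripts. Tusc3 and Magt1 are alternative oxidoreductase subunits of the Stt3b complex, and their log2 ratio was 1.69 ± 0.61 in controls and 0.79 ± 0.44 with 2-DG. This difference of -0.90 did not hold after adjustment (exact permutation p = 0.0476, adjusted p = 0.119), and was -0.05 with summed transcripts. For Gmppb to Gmppa the difference was -0.01 (exact permutation p = 0.976, adjusted p = 0.976), and control replicate 2, at -3.23, was the lowest library.

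**Figure D3:**
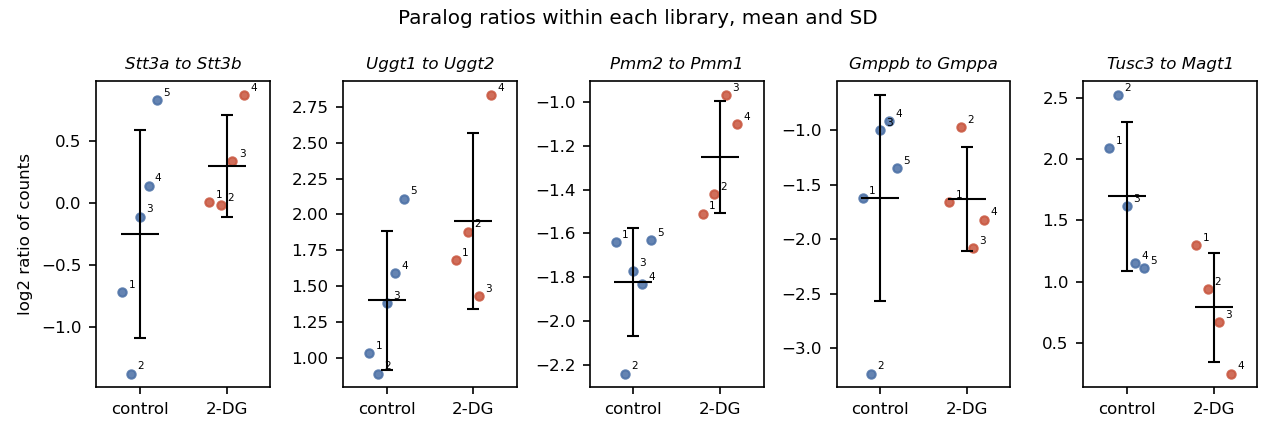
Log2 ratio of counts within each library (y axis, a separate scale for each pair) for 5 pairs of enzymes, by group; points are libraries with their replicate number, and lines are the mean and SD. The groups are apart for Pmm2 to Pmm1 (controls -2.24 to -1.63, 2-DG -1.51 to -0.97) and overlap for the other pairs.

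Levels of different genes were compared as CPM per kilobase of exon. Ganab (37.9 ± 5.59), Pmm1 (37.4 ± 8.51), Ddost (35.8 ± 5.70) and Rpn2 (34.6 ± 4.35) stood highest in controls (SD, n = 5), and these neighbours did not differ beyond their spread. Alg13 was lowest, at 1.67 ± 0.316 CPM per kilobase. Dpagt1, with 4.42 ± 0.85 CPM per kilobase in controls and 7.84 ± 0.875 with 2-DG, thus stayed among the lower genes of the pathway in both groups. Ddost reached 62.8 ± 5.96 CPM per kilobase with 2-DG and was then the highest of the 43 genes. The level of Stt3a per kilobase was 10.6 ± 4.96 in controls and 19.1 ± 0.826 with 2-DG, and that of Stt3b was 24.1 ± 6.51 in controls and 33.7 ± 8.04 with 2-DG.

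**Figure D4:**
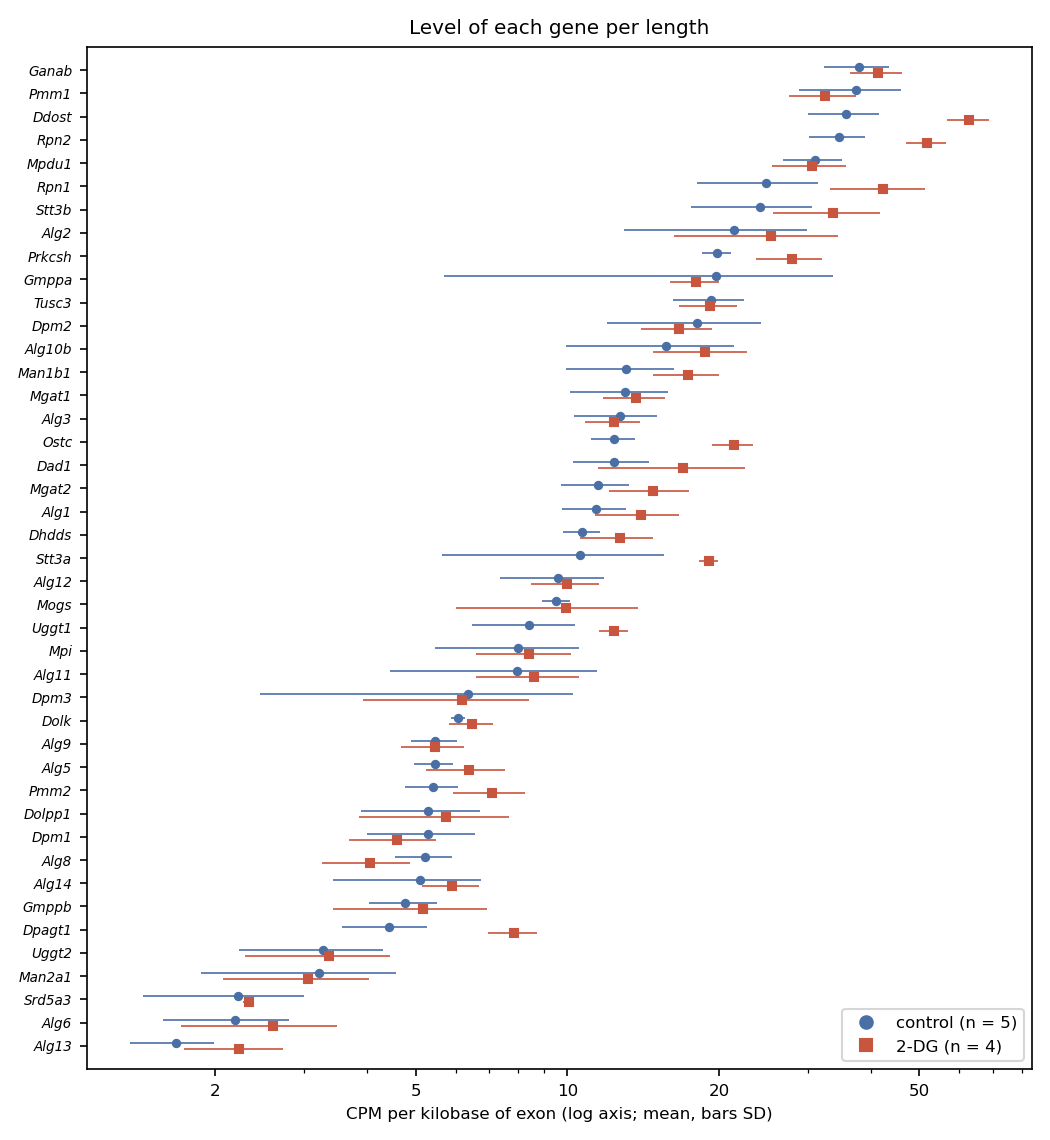
CPM per kilobase of exon (x axis, log scale) of the 43 genes in control (blue circles) and 2-DG (red squares) libraries, ordered by the control mean; bars are SD. Ddost and Rpn2 stand near the top in both groups, and Ddost, Rpn2, Ostc, Stt3a, Uggt1 and Dpagt1 are among the genes whose SD bars do not meet.

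Transcripts were tested to see which annotated forms carried these counts. Of 193 transcripts of the 43 genes, 0 passed an adjusted p-value of 0.05 in edgeR, as for all 62900 transcripts tested. At an unadjusted p-value under 0.05, 8 (4.15%) were higher with 2-DG and 3 (1.55%) were lower, whereas among all transcripts 1.17% were higher and 2.28% were lower. Ddost-201 held 100% of the tested counts of Ddost and had a log2 fold change of 0.77, from 77.6 ± 13.9 to 132 ± 15.1 CPM. Ostc-201 held 95.4% of Ostc counts in controls and 98.3% with 2-DG, with a log2 fold change of 0.81. Rpn1-201, with 75.8% and 76.1% of Rpn1 counts, measured 86.2 ± 6.19 CPM in controls and 144 ± 6.49 CPM with 2-DG, and its groups did not overlap, unlike those of the gene as a whole. Dpagt1-201 held 89.7% of Dpagt1 counts in controls and 83.7% with 2-DG, with a log2 fold change of 0.73. In these 4 genes most counts belonged to a protein-coding form, and some other forms also had higher means, with unadjusted p-values over 0.05: Dpagt1-203, annotated as subject to nonsense-mediated decay, went from 0.728 ± 0.741 to 3.23 ± 1.52 CPM, and Rpn1-202, with a retained intron, from 17.6 ± 6.00 to 28.9 ± 6.97 CPM, a log2 fold change of 0.72 beside 0.74 for Rpn1-201.

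Other genes divided their counts differently. Prkcsh-201 and Prkcsh-205, both protein coding, had log2 fold changes of 0.55 (SE 0.24) and 0.92 (SE 0.37), while Prkcsh-202 had 0.25 (SE 0.24). Of the Rpn2 counts in controls, 59.2% were assigned to Rpn2-206, annotated as a processed transcript without a coding sequence. Its log2 fold change was 0.44 (SE 0.34). The coding Rpn2-201 held 16.1% and had 0.11 (SE 0.25). Stt3a-201, protein coding with 84.3% of Stt3a counts in controls, had a log2 fold change of 0.62 (SE 0.31), and its groups overlapped. Of the Uggt1 counts in controls, 49.9% were assigned to the coding Uggt1-201, with a log2 fold change of 0.14 (SE 0.23). A further 41.7% were assigned to Uggt1-209, annotated as subject to nonsense-mediated decay, with 0.74 (SE 0.75), a difference within its error. The 3 transcripts that were lower at that level were Alg12-201 (-1.57), Alg5-202 (-1.26) and Alg8-202 (-1.73), of which Alg12-201 alone is annotated as protein coding. How uncertain the split of reads among the forms of a gene is cannot be read from these counts.

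A further 27 genes of N-glycan synthesis, trimming, transport and removal were compared in the same way. None passed an adjusted p-value of 0.05 in edgeR, and 1, Magt1, did in DESeq2 (adjusted p = 0.0453). At an unadjusted p-value under 0.05 in edgeR, 3 (11.1%) were higher with 2-DG and 0 were lower, against 2.42% and 4.83% of all genes. The count at that level was 1 of 27 with upper-quartile scaling, with library size only, without control replicate 4 and without 2-DG replicate 1. In these fits, in that order, 7.6%, 7.93%, 4.63% and 4.79% of all genes had such a p-value in either direction. The median log2 fold change of the 27 genes was 0.24, with 23 above 0 and 4 below, from -0.58 for Edem2 to 0.88 for Magt1. The value of Edem2, a gene named for its place in that range, rested on control replicate 2, at 214.9 CPM against 31.1 to 68.7 CPM in the other controls, and was 0.18 without it. Magt1, the alternative to Tusc3 in the OST, measured 16.5, 14.4, 20.8, 26.4 and 26.1 CPM in controls and 30.0, 37.0, 40.6 and 45.4 CPM with 2-DG, and its groups did not overlap. However, its gene counts were 2.42 times the sum of its transcripts, and with summed transcripts its log2 fold change was -0.04, and the difference in its ratio to Tusc3 was -0.05, so both values depend on how its reads were counted. The DESeq2 result for Magt1 was obtained from the same gene counts. Edem1, which takes misfolded glycoproteins to degradation, differed by 0.61 on the log2 scale (SE 0.25, adjusted p = 0.656), and Fut8, which adds the core fucose, by 0.56 (SE 0.25, adjusted p = 0.689). Fut8 kept an unadjusted p-value under 0.05 in 2 of 9 fits with single libraries left out, and Edem1 in 5 of 9. For the 43 genes the ratio of gene counts to summed transcripts was between 0.945 and 1.07.

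Promoter windows of Ddost, Rpn1 and Stt3a, those of the 8 genes higher at an unadjusted p-value under 0.05 that hold the motif CCACG, are shown because ER stress response factors are known to bind defined motifs upstream of ER genes. Windows of 300 bases, from 250 bases before to 50 after the start, were taken from RefSeq on GRCm38.p6 and were matched for 37 of the 43 genes, while Dpagt1 and Ostc had none. They are written in the direction of the gene, and capitals mark CCACG on either strand, the part of the ER stress response element that is bound by ATF6 and XBP1, which reads CGTGG on the opposite strand.
Ddost, chr4:138304488-138304787, plus strand: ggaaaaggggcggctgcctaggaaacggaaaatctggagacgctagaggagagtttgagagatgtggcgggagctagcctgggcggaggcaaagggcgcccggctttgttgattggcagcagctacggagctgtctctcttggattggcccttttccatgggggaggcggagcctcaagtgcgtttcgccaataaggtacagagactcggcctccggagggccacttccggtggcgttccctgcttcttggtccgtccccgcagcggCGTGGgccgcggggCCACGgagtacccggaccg
Rpn1, chr6:88084223-88084522, plus strand: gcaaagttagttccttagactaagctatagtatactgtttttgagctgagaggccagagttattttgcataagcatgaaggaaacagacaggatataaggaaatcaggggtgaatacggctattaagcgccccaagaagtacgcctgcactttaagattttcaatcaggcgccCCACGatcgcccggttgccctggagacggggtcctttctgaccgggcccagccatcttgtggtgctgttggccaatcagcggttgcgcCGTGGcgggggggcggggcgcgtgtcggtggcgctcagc
Stt3a, chr9:36767573-36767872, minus strand: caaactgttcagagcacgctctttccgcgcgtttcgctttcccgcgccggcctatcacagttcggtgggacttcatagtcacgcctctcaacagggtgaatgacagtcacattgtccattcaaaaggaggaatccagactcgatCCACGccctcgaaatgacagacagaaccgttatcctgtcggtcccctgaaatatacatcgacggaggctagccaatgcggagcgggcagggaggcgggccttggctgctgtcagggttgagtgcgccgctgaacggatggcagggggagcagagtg
The window of Ddost held 2 of these motifs, that of Rpn1 held 2 and that of Stt3a held 1. The 2 motifs of Ddost and the CGTGG of Rpn1 lay in the last 50 bases, after the start, and so not upstream. The CCACG of Rpn1 and that of Stt3a lay before the start. The other 3 of those 8 genes with a window, Rpn2, Prkcsh and Uggt1, held none. The 37 genes had 40 windows, since some genes have several starts, and CCACG was present in 19 of them (47.5%) and in 32.8% of all 32851 windows of that length. The 19 included those of genes with log2 fold changes near or below 0, such as Pmm1 and Dpm1.

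The complete ER stress response element, CCAAT followed after 9 bases by CCACG on either strand, was found in 1 of the 40 windows (2.5%) and in 0.119% of all windows. The window was that of Alg12, whose log2 fold change was 0.06, and is shown with both parts in capitals.
Alg12, chr15:88819269-88819568, minus strand: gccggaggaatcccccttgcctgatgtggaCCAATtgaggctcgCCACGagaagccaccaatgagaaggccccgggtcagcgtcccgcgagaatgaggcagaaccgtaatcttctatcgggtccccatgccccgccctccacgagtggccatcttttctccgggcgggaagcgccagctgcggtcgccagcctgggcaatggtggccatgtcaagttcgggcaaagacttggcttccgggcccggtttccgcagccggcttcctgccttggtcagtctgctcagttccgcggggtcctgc
ERSE-II (ATTGG, 1 base, CCACG), the unfolded protein response element TGACGTGG and the ATF4 and CHOP composite TGATGNAAT were found in 0 of the 40 windows, and in 0.0365%, 0.676% and 0.965% of all windows, on either strand. CCACG is part of the 2 former elements and of the complete element, and TGACGTGG holds CGTGG. A match is a description of the letters only.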

How the data were processed

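Total RNA of 9 retinal explant libraries (stranded pico-input kit, 4 ng of RNA, 13 PCR cycles, read pairs of 101 bases, 1 batch per the labels) was compared between control and 2-DG. The authors deposited 2 tables of estimated counts without scaling, for genes and for 142699 transcripts. The submitters' processing notes name kallisto and GRCm38, and how transcripts were summed to genes is not given in the sources used here. A deposited CPM table and the authors' comparison table (log2 fold changes, F statistics and p-values) were not used. Columns were matched to samples by title, and 0 count columns remained without a sample.

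Estimated counts were rounded, which changed no library total by more than 0.00377%, and tested in R 4.3.3 with edgeR 4.0.16: filterByExpr, TMM scaling, glmQLFit (legacy=TRUE, robust=FALSE) and glmQLFTest with group as the only term, and Benjamini-Hochberg adjustment over all 21049 genes or 62900 transcripts kept, at a threshold of 0.05. A standard error is the absolute log2 fold change divided by the square root of F. Paralog ratios used a prior count of 0.5. The common dispersion of 0.265, a biological coefficient of variation of 51.5%, measures the spread between libraries. Exon lengths, coordinates and transcript names came from GENCODE M21 (141374 transcripts matched). Alternatives were DESeq2 1.42.0, limma 3.58.1 voom, other scalings, no filter, summed transcripts, a replicate block and leaving out each library, and the scripts were tested on simulated data.

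The 43 genes and all lists were chosen with earlier results of these data known. Genes described singly had an unadjusted p-value under 0.05 or groups that do not overlap or, in a step without such a gene, the smallest p-value; exceptions are stated.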

Additional observations from a re-analysis of the deposited data

Results flagged for a closer look

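Of 26 combinations of gene and group examined for the 13 genes chosen for single description, 2 held a library far from the others of its group by Dixon's criterion at the 95% level, which by chance happens in about 1 of 20. Alg5 in control replicate 5, at 23.5 CPM, lay above the other controls, which reached 19.0 to 20.0 CPM. Prkcsh in 2-DG replicate 3, at 92.6 CPM, lay below the other 2-DG libraries, which reached 127.3 to 129.6 CPM.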

How the results depend on the processing

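In edgeR none of the 43 genes passed the adjusted threshold under any alternative, and 4 did in DESeq2 and 6 in limma-voom, where 284 and 1222 of all genes passed and 1 of the 27 other N-glycan genes passed in DESeq2. Limma-voom also gave 16 of the 43 genes higher at an unadjusted p-value under 0.05 (10.6% of all genes) and 7 of the 27 in either direction (26.0% of all genes). The latter number fell to 1 of 27 with upper-quartile scaling and with library size only (7.6% and 7.93% of all genes). The median log2 fold change of the 43 genes was 0.05 with upper-quartile scaling, 0.19 with summed transcripts and 0.25 with limma-voom. Tusc3 changed sign to 0.02 without a filter and 0.19 in limma-voom, Magt1 to -0.04 with summed transcripts, Gmppa to 0.03 with summed transcripts, 0.03 with the replicate block and 0.45 in limma-voom, Edem2 to 0.18 in limma-voom, and the Pmm2 to Pmm1 difference was 0.50 with summed transcripts. The causes were not tested. Of 378 values for 21 singly described genes under 18 settings, 354 kept their direction and side of the threshold, 11 passed it newly and 13 reversed.

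When single libraries were left out, 0 to 16 of all genes passed the adjusted threshold (16 without control replicate 2, 2 without 2-DG replicate 4). Ranges were 5 to 9 of the 43 genes (1.35% to 3.38% of all genes) and 1 to 3 of the 27 (4.63% to 12.9%) at an unadjusted p-value under 0.05, 4 to 9 of the transcripts of the 43 genes higher at that level (0.70% to 2.32% of all transcripts), a median of 0.11 to 0.21 for the 43 genes, -0.08 to 0.08 for Tusc3, -0.29 to 0.42 for Gmppa, -0.79 to 0.18 for Edem2, 0.27 to 0.82 for Stt3a to Stt3b, 0.26 to 0.73 for Uggt1 to Uggt2, 0.46 to 0.66 for Pmm2 to Pmm1 and -0.41 to 0.17 for Gmppb to Gmppa. Adjusted over 5 pairs, the permutation p of Pmm2 to Pmm1 was above the threshold in each of these 9, since fewer libraries raise the smallest p the design allows.

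Deviations of samples with the same replicate number correlated by 0.451, -0.155, 0.102 and 0.205, and 2 of the 4 correlated best with their own number. Since not every correlation was over 0.1, the numbers were not taken as pairs. With the replicate block 0 of all genes and 0 of the 43 passed the adjusted threshold, 7 of the 43 were higher at an unadjusted p-value under 0.05 (3.24% of all genes), and 4 of the 27 had one under 0.05 (6.42% of all genes).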
